A study of Homo sapiens with 4 samples.

Results

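The cytosolic ribosomal protein genes encode the proteins of the ribosomes that translate messenger RNA in the cytoplasm. They were chosen by symbol: every gene whose name starts with RPL, RPLP or RPS and a digit, or is RPSA, without S6 kinases, pseudogenes and antisense transcripts. The rule reads symbols, and where a gene had several transcript clusters the one with the highest mean signal was taken. The rule found 58 of the 22465 genes tested. Of these, 47 are standard ribosomal protein genes (20 of the small subunit, 27 of the large subunit) and 10 are copy genes. The remaining gene, RPS19BP1, encodes a protein that binds RPS19 and is not itself a ribosomal protein; it matched by name and is kept in the counts. A further 23 transcript clusters list such a symbol together with other symbols and were not used, which leaves RPL5, for example, without a value.

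The study used Affymetrix arrays on A549, an established human cell line grown from a carcinoma of the lung epithelium. In the shINSL4 group the cells had been transduced with a pLKO.1 lentivirus for a single hairpin against INSL4, a placental peptide hormone gene of the insulin and relaxin family. The shCtl group carried a control pLKO.1 lentivirus, which the series design calls a scrambled hairpin and the sample labels call a vector control. Each group has 2 arrays, 1 for each of its independent cultures, 4 in all. Whether separate transductions lie behind them is not stated, and the p-values rest on the variation among such cultures alone. With 1 hairpin, effects of INSL4 loss and of the hairpin itself cannot be told apart.

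The values are log2 RMA levels, and the small number of arrays limits their precision. INSL4 read 7.26 and 7.22 on the shINSL4 arrays, against 9.03 and 8.92 on the shCtl arrays, which follows the labels. The epithelial genes KRT8, KRT18 and CDH1 read 9.69 to 12.36 on the shINSL4 arrays and 10.18 to 12.75 on the shCtl arrays, while EPCAM and KRT19, also epithelial, read 6.56 to 6.89 and 6.65 to 7.02. The lung lineage genes NKX2-1, SFTPB and SFTPC read 6.66 to 6.88 and 6.51 to 6.76, and no detection calls were used here. Of all tested genes 6.41% rose and 9.42% fell, and the counts of each gene list stand against these shares. By unadjusted p under 0.05 in limma, 4663 of the 22465 tested genes were higher and 3045 lower. Of 12 measured epithelial and A549 genes 4 fell (KRT8, KRT18, CDH1 and EPCAM) and 0 rose, and of 8 measured genes of leukocytes, endothelium, fibroblasts and muscle 0 rose and 0 fell in limma's adjusted test, with 0 and 1 by unadjusted p. The part of these markers in the results below was not tested. The median of all tested genes was 6.98 and 6.97 in shINSL4, against 6.94 and 6.91 in shCtl, so the average gene reads slightly higher in shINSL4 as deposited.

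Ribosomal proteins are among the most abundant products of a growing cell, and they are needed in equal amounts because each ribosome holds a single copy of almost every one. Their messenger RNAs begin with a C followed by a run of pyrimidines, the 5′ terminal oligopyrimidine (TOP) tract, which lets mTORC1 signalling and the RNA-binding protein LARP1 control their translation and stability together. Free ribosomal proteins such as RPL5 and RPL11 also bind MDM2, the ubiquitin ligase that limits p53.

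Start sites are shown first, since the tract is the sequence feature that most standard ribosomal protein genes have at their start. At the listed start it is found in some of the called genes and not in others. Each line gives 40 bases before the RefSeq start and 20 bases from it on (GRCh38.p14), 5′ to 3′ on the strand of the gene. Capitals mark a TOP tract at the start, that is a C at the start site followed by at least 4 further C or T, to its last pyrimidine. RPS3, RPS18, RPL29 and RPL36, called higher in shINSL4, and RPL12 and RPL14, called lower, carry the tract. RPS7, RPS28, RPL27 and RPL9, and the copy gene RPS27L, were called higher and have none at this start, and neither has the copy gene RPL26L1, which was not called.
RPS3: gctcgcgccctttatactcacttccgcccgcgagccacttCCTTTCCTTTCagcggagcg
RPS18: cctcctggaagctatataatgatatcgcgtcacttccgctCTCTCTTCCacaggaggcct
RPL29: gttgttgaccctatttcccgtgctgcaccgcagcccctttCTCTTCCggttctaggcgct
RPL36: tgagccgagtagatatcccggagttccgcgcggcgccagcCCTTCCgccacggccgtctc
RPL12: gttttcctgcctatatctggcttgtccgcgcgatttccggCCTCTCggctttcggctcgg
RPL14: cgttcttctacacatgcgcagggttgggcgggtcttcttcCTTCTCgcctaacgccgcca
RPS7: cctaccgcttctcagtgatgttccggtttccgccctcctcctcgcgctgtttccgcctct
RPS28: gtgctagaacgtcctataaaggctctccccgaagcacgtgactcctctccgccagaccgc
RPL27: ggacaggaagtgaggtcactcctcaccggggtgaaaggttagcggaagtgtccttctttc
RPL9: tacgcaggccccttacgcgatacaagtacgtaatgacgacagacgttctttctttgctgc
RPS27L: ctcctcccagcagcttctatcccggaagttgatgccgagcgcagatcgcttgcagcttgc
RPL26L1: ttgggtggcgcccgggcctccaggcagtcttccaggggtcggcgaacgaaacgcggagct

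These windows lie at chr11:75399478-75399537 on the plus strand for RPS3, chr6:33272035-33272094 plus for RPS18, chr3:51995876-51995935 minus for RPL29 and chr19:5690255-5690314 plus for RPL36. RPL12 lies at chr9:127451387-127451446 on the minus strand, RPL14 at chr3:40457299-40457358 plus, RPS27L at chr15:63157458-63157517 minus and RPL26L1 at chr5:172958689-172958748 plus. RPS7 lies at chr2:3575220-3575279 plus, RPS28 at chr19:8321456-8321515 plus, RPL27 at chr17:42998379-42998438 plus and RPL9 at chr4:39458903-39458962 minus. The RefSeq table held a start for 50 of the 58 genes, and for 34 of them (68.0%) at least 1 listed start carried the tract. Among the 15247 tested genes with a start the share was 5.97%. Of 42 standard ribosomal protein genes with a start 32 (76.2%) carried it, against 2 of 8 copy genes. The longest run among the genes shown, in RPS3, has 11 pyrimidines. Genes with and without the tract at a listed start had similar medians. The 34 genes with it had a median log2 fold change of 0.17, with 8 higher and 2 lower. The 16 without it had a median of 0.19, with 5 higher and 0 lower. Copy genes, of which 2 of 8 carried the tract, lie mostly in this class, and standard genes were not compared alone. RPL8, called lower, and RPS15A, called higher, had no listed start and are in neither class. The second class rests on the exact listed base. In RPS28 a pyrimidine run begins directly after the first base, and in RPS7 a run spans the start. The 2 classes therefore need not separate genes with TOP mRNAs from genes without them. A match describes the listed start, and starts of the transcripts in these cells were not measured.

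Most ribosomal protein genes read slightly higher in shINSL4 than in shCtl, and a single one, RPL12, was much lower. Of the 58 genes, 14 rose and 3 fell in limma's test with Benjamini-Hochberg adjustment at 0.05, and 41 did not pass. The share called higher was 24.1%, against 6.41% of all tested genes, and the share called lower was 5.17%, against 9.42%. The increases were small, from 1.18-fold for RPL11 to 1.27-fold for RPL29. The median log2 fold change of the 58 genes was 0.16, beside 0.08 for all genes tested, and the middle 50% lay between 0.05 and 0.24. Both shINSL4 arrays lay above both shCtl arrays for 39 of the 58 genes and below them for 7, while 12 overlapped. Over all tested genes 48% were separated upward and 20.8% downward. The log2 fold change was above 0 for 48 of the 58 genes, against 68.8% of all tested genes.

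**Figure D1:**
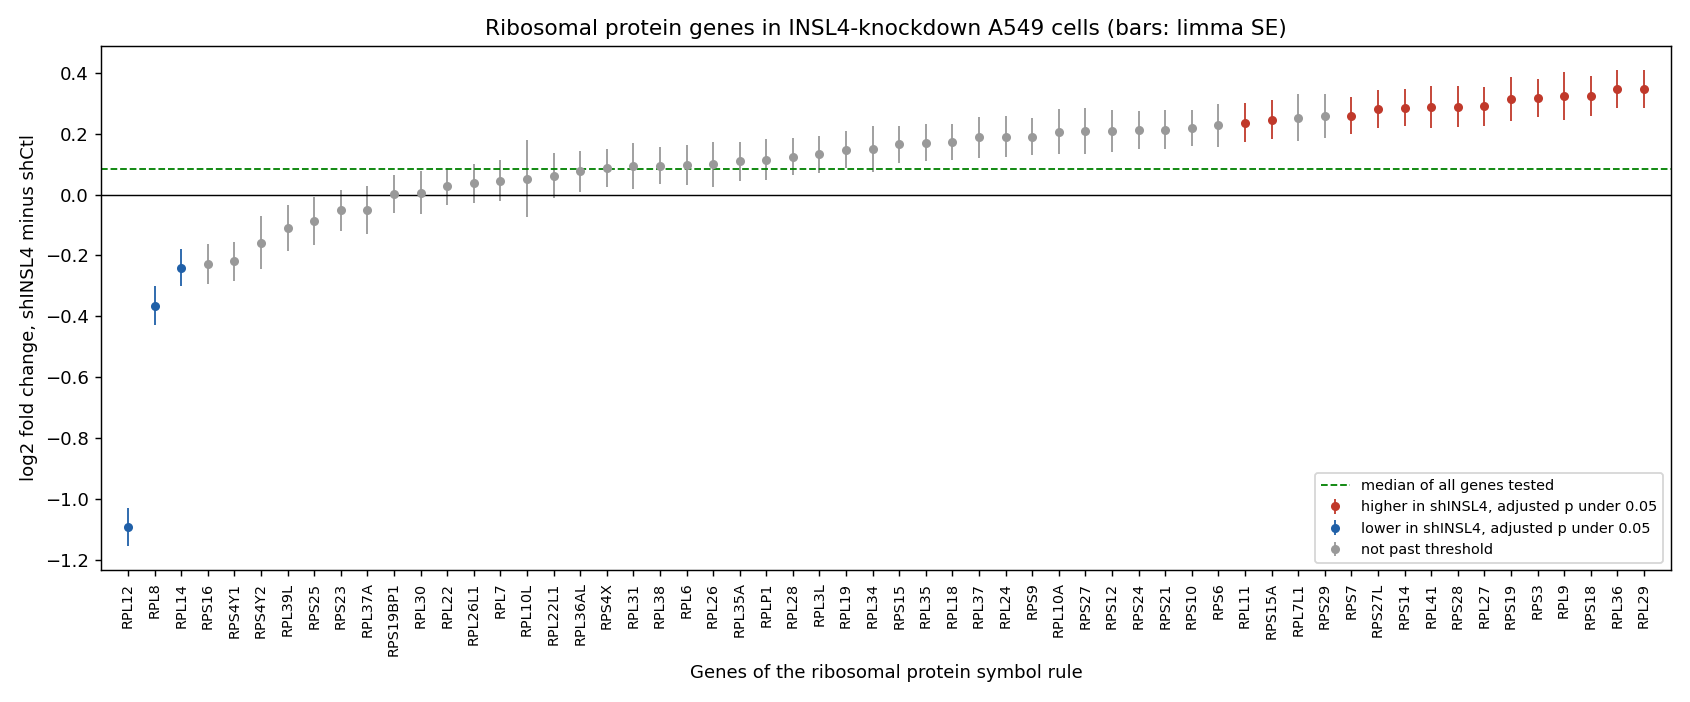
Log2 fold change (shINSL4 minus shCtl, y axis) of each of the 58 genes in order of size, with limma's standard error as bars; red points rose and blue points fell at an adjusted p under 0.05, and the dashed line is the median of all tested genes, 0.08. RPL12 stands alone at -1.09, and 48 of the 58 points lie above 0.

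The number of genes called depended strongly on the scaling and on single arrays. With arrays centred on their medians, 4 genes were higher (RPS3, RPS18, RPL29 and RPL36) and 5 lower, against 3.6% and 10.4% of all genes, so the higher share of the calls was 44.4% in place of 82.4%. After cyclic loess it was 77.8% (14 higher and 4 lower, against 4.02% and 10.6% of all genes). After quantile normalization it was 92.9% (26 higher and 2 lower, against 6.82% and 9.56%). The median of the 58 genes stayed above that of all tested genes, by 0.07 as deposited and after centring, 0.17 after cyclic loess and 0.18 after quantile normalization.

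Leaving out an shINSL4 array removed most calls. Without shINSL4 replicate 1 limma called 1 gene higher and 1 lower, against 3.97% and 6.25% of all genes, and without shINSL4 replicate 2 it called 0 higher and 2 lower, against 3.6% and 7.2%. By unadjusted p under 0.05 there were 17 and 3, and 12 and 3. Without shCtl replicate 1 there were 11 higher and 4 lower, against 13.3% and 10.8%, and without shCtl replicate 2 there were 11 and 2, against 4.8% and 7.36%. Each of the 17 called genes kept its direction in every refit that tested it, which for most refits was fixed in advance. Leaving out an array cannot turn the sign of a gene whose groups do not overlap. Block, variance models, level filters and thresholds leave the fold change of a gene unchanged. Only the normalizations and the choice of cluster could have turned a direction.

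Other variance models gave more calls, among all genes too. An intensity trend gave 26 higher and 5 lower, against 8.83% and 10.9% of all genes, and robust estimation on top of it 28 and 5, against 9% and 11%. With the lowest 40% of genes left out 28 and 5 of 55 were called, against 16.5% and 18.4%, and with genes of a mean log2 level under 10 left out 16 and 2 of 20, against 23.4% and 29.1%. A threshold of 0.1 gave 23 and 5, against 13.2% and 11.8%. Averaging the clusters of a gene gave 14 and 3, against 6.4% and 9.38%, and taking the lowest cluster 13 and 3, against 6.33% and 9.29%. Tested against a fold of 1.2 with limma's treat, 0 were higher and 1 lower (0 and 1 by unadjusted p), against 0.485% and 3.01%.

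**Figure D2:**
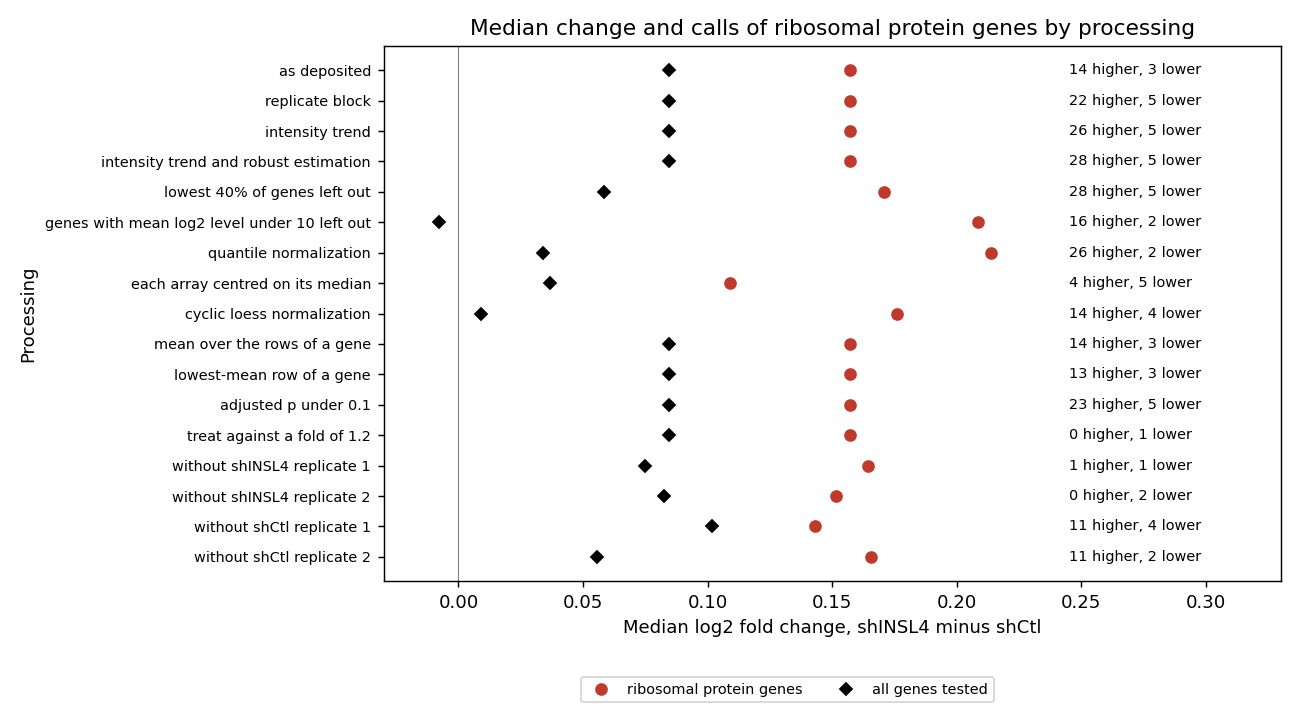
Median log2 fold change (x axis, shINSL4 minus shCtl) of the ribosomal protein genes (circles) and of all tested genes (diamonds) under each processing (y axis), with the number of ribosomal protein genes called higher and lower printed at the right. The circle lies to the right of the diamond in every line, from 0.11 after median centring to 0.21 after quantile normalization, while the number called higher runs from 0 to 28.

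Of the 20 standard genes of the small subunit 7 rose (35%) and 0 fell, with a median log2 fold change of 0.22. Over all tested genes 6.41% rose and 9.42% fell. Both shINSL4 arrays lay above both shCtl arrays for 17 of the 20, against 48% of all tested genes. By unadjusted p under 0.05 in limma the counts among the 20 genes were 16 and 1, against 4663 and 3045 of the 22465 tested genes. Averaged over the 20 genes, the log2 level was 10.17 and 10.21 on the shINSL4 arrays, against 9.98 and 10.03 on the shCtl arrays. Of the 27 standard genes of the large subunit 6 rose (22.2%) and 3 fell (11.1%), with a median of 0.12. The share of them that fell was near the 9.42% of all tested genes. Averaged over the 27 genes, the log2 level was 9.38 and 9.41 in shINSL4, against 9.29 and 9.34 in shCtl. The difference between the subunits was not tested.

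RPS3, a small-subunit protein at the entry of the mRNA channel, read 10.67 and 10.69 on the shINSL4 arrays, against 10.33 and 10.39 on the shCtl arrays. It rose by 0.32 on the log2 scale (SE 0.0626), with a limma adjusted p of 0.0181. RPS18, a protein of the small-subunit head, read 11.09 and 11.03, against 10.77 and 10.70, a rise of 0.32 (SE 0.0654, adjusted p = 0.0197, limma). Of its 7 transcript clusters, 6 had log2 fold changes of 0.31 to 0.32 and the last had 0.21 (SE 0.151). Of those 6, 5 hold identical values, as for copies of the gene on alternative versions of its chromosome region, so they count as a single measurement.

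RPS19, the gene most often mutated in Diamond-Blackfan anaemia, an inherited failure of red cell production, read 11.92 and 12.02 in shINSL4, against 11.59 and 11.71 in shCtl. It rose by 0.31 (SE 0.0737), with an adjusted p of 0.0330 (limma). The 2 shCtl arrays differ by 0.12 for this gene, yet the groups do not overlap. RPS28 read 12.05 and 12.15, against 11.83 and 11.78, and rose by 0.29 (SE 0.0670). RPS14, whose loss is known from the 5q- syndrome of the bone marrow, read 7.99 and 7.97, against 7.67 and 7.72, and also rose by 0.29 (SE 0.0619). RPS7 and RPS15A rose by 0.26 and 0.25, each with both shINSL4 arrays on top. The other 13 small-subunit genes did not pass, and their log2 fold changes ran from -0.23 for RPS16 to 0.26 for RPS29. RPS16 read 12.61 and 12.72, against 12.90 and 12.88 (adjusted p = 0.0643, limma), and passed after median centring (adjusted p = 0.0421). Its log2 fold change was -0.10 after quantile normalization (adjusted p = 0.438) and -0.19 after cyclic loess (adjusted p = 0.131).

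In the large subunit, RPL29 and RPL36 had the largest increases. RPL29, a small basic surface protein, read 9.79 and 9.85 in shINSL4, against 9.46 and 9.48 in shCtl, and rose by 0.35 (SE 0.0628, adjusted p = 0.0134, limma). RPL36 read 10.19 and 10.22, against 9.88 and 9.84, and rose by 0.35 (SE 0.0617, adjusted p = 0.0128, limma). For both the gap between groups was several times the spread within either. RPL9 read 8.12 and 8.19, against 7.74 and 7.92, a rise of 0.32 (SE 0.0795) with the wider spread in shCtl. It was not called after median centring (adjusted p = 0.0963, limma) or cyclic loess (adjusted p = 0.065, limma). RPL27 rose by 0.29, and so did RPL41, which encodes a very short ribosomal peptide.

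RPL11, which forms a particle with RPL5 and 5S ribosomal RNA and in free form binds MDM2, read 8.70 and 8.66 in shINSL4, against 8.42 and 8.47 in shCtl. Its rise of 0.24 (SE 0.0625) lay at the edge of the threshold, with an adjusted p of 0.0480 (limma). RPL11 was not called after median centring (adjusted p = 0.105) or cyclic loess (adjusted p = 0.0503). MDM2 itself rose by 0.83 (SE 0.0948, adjusted p = 0.00237, limma), and was picked after its value was seen. RPLP1, the measured acidic protein of the stalk that recruits translation factors, read 9.26 and 9.36, against 9.17 and 9.23, and did not pass (log2 fold change 0.11, SE 0.0676). Of 9 measured genes mutated in Diamond-Blackfan anaemia 4 rose (RPS7, RPS19, RPL11 and RPL27) and 0 fell, with a median of 0.22. Over all tested genes 6.41% rose. All 9 are standard ribosomal protein genes, of which 27.7% rose, with a median of 0.19. By unadjusted p in limma the counts among the 9 were 6 and 0, against 4663 and 3045 of the 22465 tested genes. The 4 calls were lost after median centring (adjusted p of 0.0589 to 0.105, limma).

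**Figure D3:**
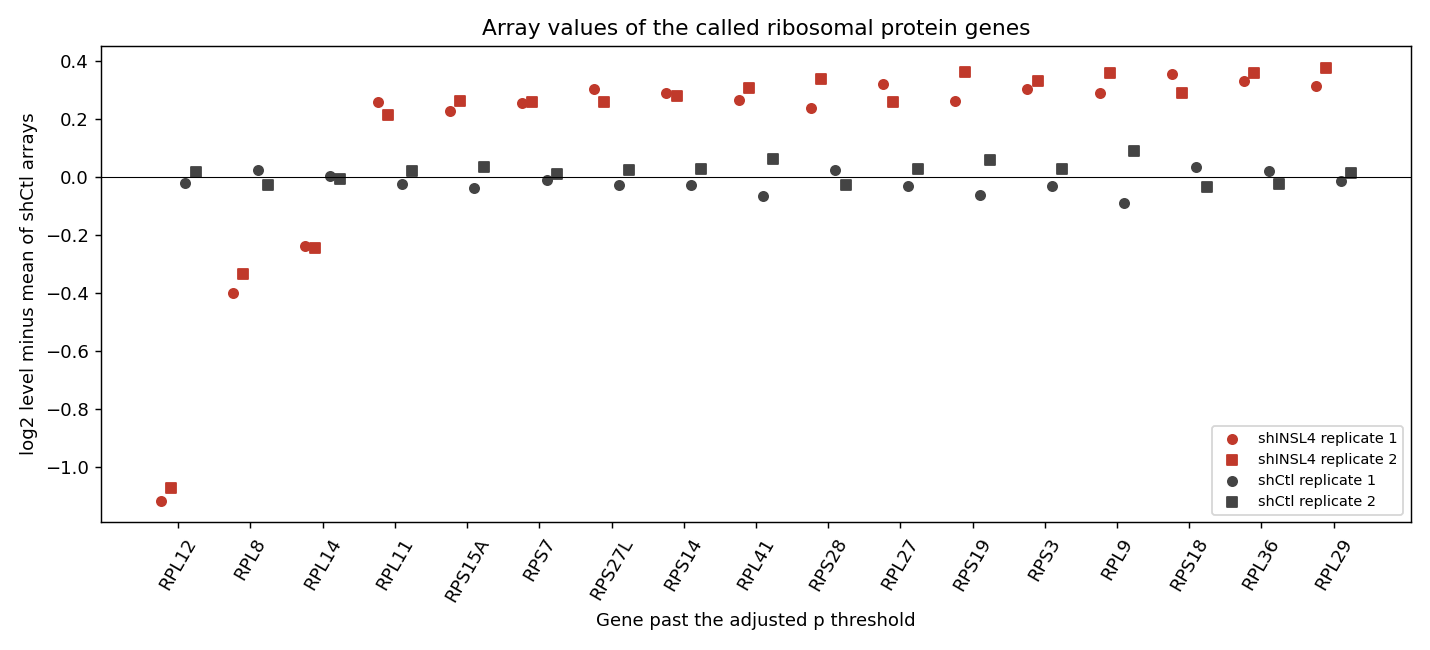
Log2 level of each of the 17 called genes on each array (y axis), with the mean of its shCtl arrays set to 0; red points are the shINSL4 arrays and grey points the shCtl arrays, circles replicate 1 and squares replicate 2. The groups do not overlap for any of the 17, and RPL12, at -1.09, lies furthest from 0, followed by RPL8 at -0.36.

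RPL12, RPL8 and RPL14, all of the large subunit, fell. RPL12, a protein at the base of the ribosomal stalk, read 8.83 and 8.87 on the shINSL4 arrays, against 9.92 and 9.96 on the shCtl arrays. Its decrease, a log2 fold change of -1.09 (SE 0.0619, limma adjusted p = 0.000218), corresponds to 2.13-fold less signal in shINSL4. It was called lower in each of the 15 refits that tested it, with a log2 fold change of -1.14 to -1.02. RPL8, a protein next to the peptidyl transferase centre, read 11.5796 and 11.646, against 12.0045 and 11.9509, and fell by 0.36 (SE 0.0643, adjusted p = 0.0122, limma). Without shINSL4 replicate 1 its adjusted p was 0.0893 (range over its refits 0.000304 to 0.94). RPL14 read 9.72 and 9.71, against 9.96 and 9.95, and fell by 0.24 (SE 0.0600, adjusted p = 0.0402, limma); after quantile normalization it did not pass (adjusted p = 0.124).

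Transcripts related to RPL12 did not all move with it. The annotated pseudogene RPL12P2, picked after its value was seen, read 7.01 and 6.86 in shINSL4, against 8.34 and 8.40 in shCtl, and fell by 1.43 (SE 0.0757, adjusted p = 0.000184, limma). Processed pseudogenes can be near-identical to their parent, so signals of RPL12 and RPL12P2 may not be separable. SNORA65, a small nucleolar RNA encoded within the RPL12 gene, read 9.25 and 9.32, against 9.09 and 9.02, and had a log2 fold change of 0.23 (SE 0.0662, adjusted p = 0.0624, limma). Its shINSL4 arrays thus lay above its shCtl arrays, while those of RPL12 lay below. The gene table places 9 small nucleolar RNA genes inside 6 of the 58 genes, and 5 of them were measured. In limma 0 of the 5 rose and 0 fell, with 1 higher and 0 lower by unadjusted p. The others had log2 fold changes of 0.08 for SNORD15A and -0.06 for SNORD15B in RPS3, -0.03 for SNORA72 in RPL30 and -0.06 for SNORD72 in RPL37.

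Of the 40 measured ribosomal protein pseudogenes 3 rose (7.5%) and 2 fell (5%), with a median log2 fold change of 0.14. Over all tested genes the shares were 6.41% and 9.42%, so the share that rose was near the background. The pseudogenes called, RPL23P8 (0.50), RPL29P2 and RPL23AP87 (0.28) higher and RPL12P2 and RPL23AP7 (-0.35) lower, are named after their values were seen. For 16 of the 40 pseudogenes the parent is among the 58 genes. RPL29P2 rose by 0.37 (SE 0.0709, adjusted p = 0.0165, limma) beside the 0.35 of RPL29, and RPL41P2, at 0.27 beside 0.29, did not pass. These pairs may share signal in the same way.

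Copy genes encode near relatives of a standard protein, several of them used in particular tissues. Of the 10 measured copies 1 rose and 0 fell, beside 6.41% and 9.42% of all tested genes, with a median of 0.06. By unadjusted p in limma the counts were 2 and 1, against 4663 and 3045 of the 22465 tested genes. The gene that rose was RPS27L, a known p53 target, which read 8.49 and 8.44 in shINSL4, against 8.16 and 8.21 in shCtl, a rise of 0.28 (SE 0.0628, adjusted p = 0.0276, limma). Its standard partner RPS27 read 10.52 and 10.62, against 10.30 and 10.43, and had a log2 fold change of 0.21 (SE 0.0749) that did not pass (adjusted p = 0.108, limma). RPS27L did not pass after median centring (adjusted p = 0.0596, limma) but did after cyclic loess and quantile normalization. RPS27 passed after quantile normalization (adjusted p = 0.0303, limma) but not after centring or cyclic loess. The difference between RPS27L and RPS27 was not tested. Of 11 measured p53 targets 8 rose (72.7%) and 2 fell (18.2%), against 6.41% and 9.42% of all tested genes. SESN1 rose by 1.18, TRIAP1 by 0.81, ZMAT3 by 0.74 and XPC by 0.71. The 2 that fell, CCNG1 at -1.06 and RRM2B at -0.63, are named after their values were seen.

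RPS4Y1, the copy of RPS4X on the Y chromosome, read 7.50 and 7.54, against 7.71 and 7.77 (log2 fold change -0.22, SE 0.0634, adjusted p = 0.0628, limma), and passed after centring (adjusted p = 0.0452) and cyclic loess (adjusted p = 0.0393). RPS4X itself had 0.09 (SE 0.0624). RPS4Y2 had -0.16 and the germ-cell form RPL39L -0.11. RPL7L1, a nucleolar relative of RPL7, had 0.25 (SE 0.0769, adjusted p = 0.0728, limma) and RPL7 had 0.05, which turned to -0.00286 after centring. RPL22L1 had 0.06 and RPL22 0.03; the sign of RPL22L1 turned after quantile normalization and cyclic loess, and that of RPL22 after centring. RPL26L1 had 0.04, with the sign turned after centring and cyclic loess, and RPL26 had 0.10. The muscle form RPL3L had 0.13, RPL36AL 0.08 and RPL10L, a testis form, 0.05 (SE 0.126), whose sign turned after quantile normalization and cyclic loess and which passed as higher without shCtl replicate 1 (adjusted p = 0.0444, limma).

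Array signals of the 58 genes ran from 4.45 for RPL10L to 12.78 for RPS16 as means over 4 arrays, and signals of different probe sets do not rank their transcripts.

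The mitochondrial ribosome, built from a separate set of proteins, gave the nearest comparison. Of 74 measured mitochondrial ribosomal protein genes 2 rose (2.7%) and 8 fell (10.8%), with a median log2 fold change of 0.02. Over all tested genes the shares were 6.41% and 9.42%, so the share that fell was near the background. Their mean log2 level was 8.04 and 8.08 on the shINSL4 arrays, against 8.07 and 8.11 on the shCtl arrays. The mean over the 58 cytosolic genes was 9.25 and 9.27 in shINSL4, against 9.13 and 9.18 in shCtl. The SD of that mean between arrays of a group was 0.0261. Less the median of all tested genes on the same array, the mean was 2.27 and 2.30, against 2.19 and 2.27. The median level of the 58 genes overlapped between groups, at 9.15 and 9.14 in shINSL4, against 9.13 and 9.19 in shCtl. The difference between the gene sets was not tested.

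**Figure D4:**
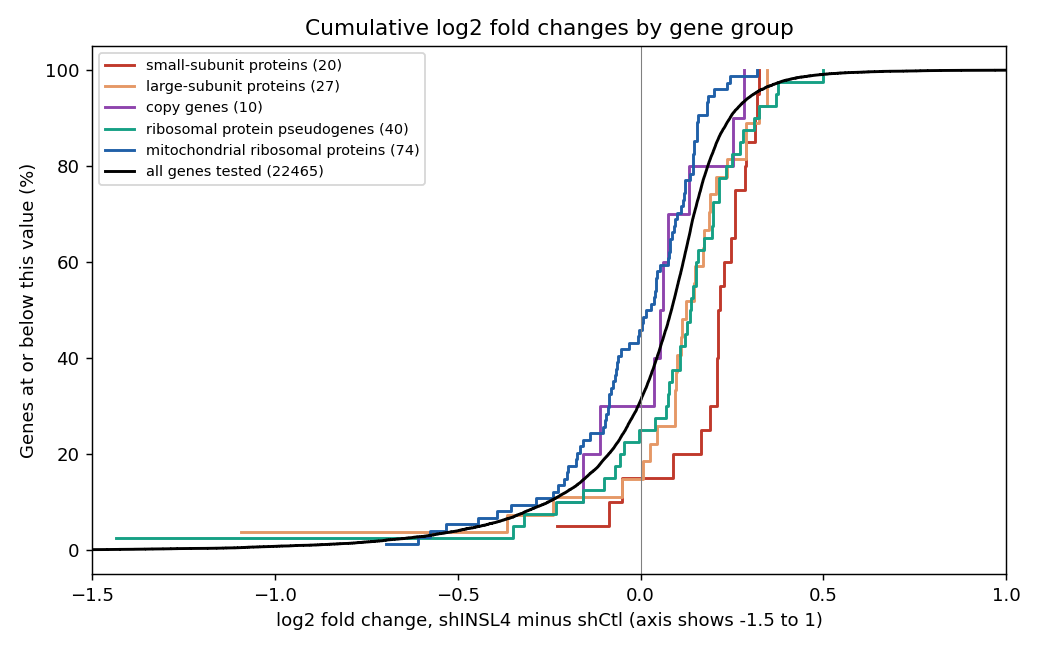
Cumulative share of genes (y axis, %) at or below each log2 fold change (x axis, shINSL4 minus shCtl) for 5 gene groups and all tested genes. By median, the small-subunit curve lies furthest to the right, at 0.22, and the mitochondrial ribosomal proteins furthest to the left, at 0.02. Away from the median the curves cross.

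Among regulators of ribosomal protein mRNAs, MTOR and LARP1 fell by more than 2-fold. Of 15 measured regulators 4 fell (26.7%) and 2 rose (13.3%), with a median of -0.13. Over all tested genes 9.42% fell and 6.41% rose. MTOR, the kinase of mTORC1, read 7.02 and 7.09 in shINSL4, against 8.30 and 8.39 in shCtl, and fell by 1.29 (SE 0.0668, adjusted p = 0.000172, limma), a level 2.45-fold lower. LARP1, which binds the TOP tract, read 8.85 and 8.83, against 10.00 and 9.97, and fell by 1.15 (SE 0.0606, adjusted p = 0.000184, limma), a level 2.21-fold lower. Their shINSL4 arrays lie far below the shCtl arrays, and the calls held in every refit that tested them. The S6 kinase genes RPS6KB1 and RPS6KB2, whose products phosphorylate RPS6 downstream of mTORC1, fell by 0.47 and 0.46. The 2 that rose, TSC1 at 0.31 and CNBP at 0.27 (not called after median centring, adjusted p = 0.0920), fall outside the naming rule and are named here since they complete the count. TSC1 restrains mTORC1, and CNBP is an RNA-binding protein linked to TOP mRNAs. MYC, a transcription factor that drives ribosome production, had a log2 fold change of 0.01 (SE 0.0734) and did not pass. These are mRNA levels, and neither mTORC1 activity nor translation was measured.

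Among 13 measured genes with TOP mRNAs outside the ribosome 3 rose and 1 fell, with a median of 0.10, against 6.41% and 9.42% of all tested genes. EIF4B, an initiation factor, rose by 0.42 (SE 0.0673), the histone chaperone gene NAP1L1 by 0.32 (SE 0.0766) and the poly(A)-binding protein gene PABPC1 by 0.29 (SE 0.0703). After median centring NAP1L1 and PABPC1 did not pass (adjusted p = 0.0859 and 0.0870, limma). EEF2, the factor that moves the ribosome along the mRNA, read 11.37 and 11.52 in shINSL4, against 12.16 and 12.18 in shCtl, and fell by 0.73 (SE 0.0717, adjusted p = 0.00130, limma). FAU, which encodes a small-subunit protein fused to a ubiquitin-like domain and lies outside the symbol rule, had 0.06 (SE 0.0607). Of 16 measured factors of ribosomal RNA transcription, 5S particle and late subunit assembly 4 fell (25%) and 3 rose (18.8%). The shares over all tested genes were 9.42% and 6.41%. The small-subunit endonuclease gene NOB1 fell by 0.63 and RPF2, which brings RPL5 and RPL11 into the large subunit, by 0.49. POLR1E, a subunit of RNA polymerase I, rose by 0.46 and the assembly kinase gene RIOK2 by 0.41. The others called, also named after their values were seen, were POLR1D (0.34), POLR1A (-0.39) and UBTF (-0.24), all of the RNA polymerase I machinery.

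**Figure D5:**
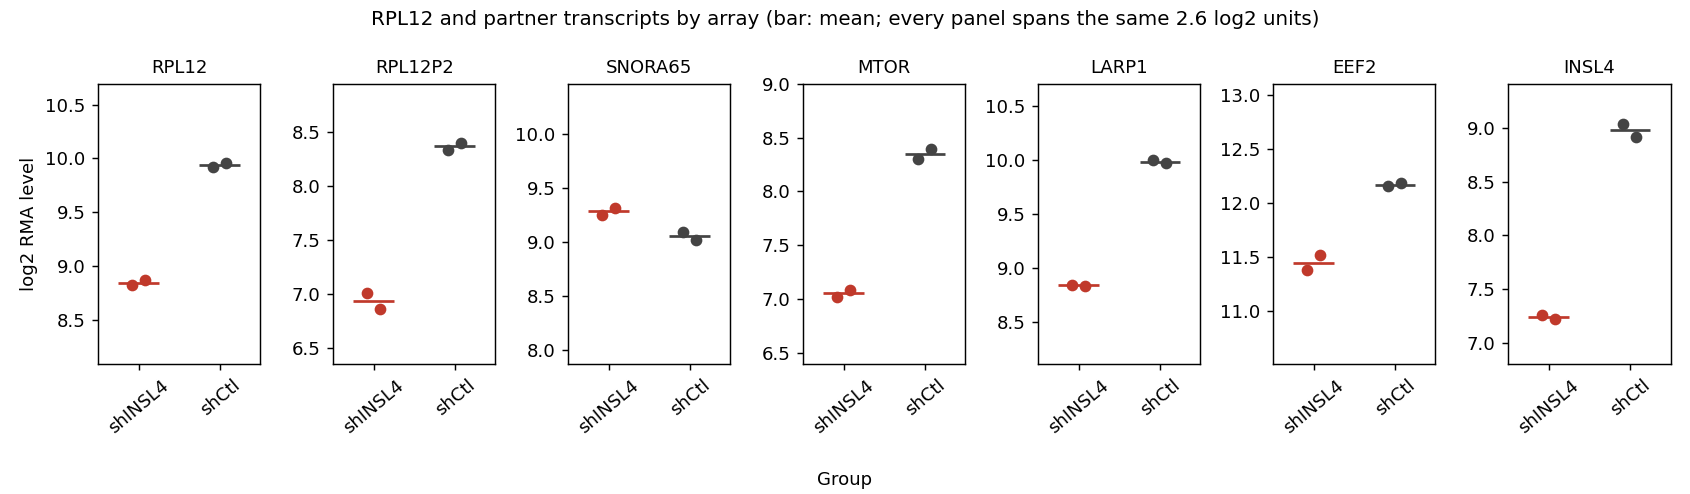
Log2 RMA level (y axis) on each array, with shINSL4 left and shCtl right and a bar at the group mean, for RPL12, its pseudogene RPL12P2, the nested SNORA65, MTOR, LARP1, EEF2 and INSL4; each panel has its own centre and the same span. All but SNORA65 are lower in shINSL4, with log2 fold changes of -0.73 (EEF2) to -1.73 (INSL4).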

How the data were processed

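The deposited log2 values cover 67528 transcript clusters on 4 arrays. Per the submitters' processing notes, the authors used RMA and Affymetrix Expression Console to make them; the sources used here give no version, annotation release or build. RMA corrects background, normalizes arrays and summarises probes. No read depth exists for arrays. The 23781 clusters with exactly 1 symbol in the platform annotation gave 22465 genes (highest mean where there were several); 1543 clusters had several symbols and 42204 were not listed. Genes were tested with limma 3.58.1 in R 4.3.3 (group term, eBayes, two-sided), with Benjamini-Hochberg adjustment over all genes at 0.05. Fold changes had a median SE of 0.0693 (log2), and 2 residual degrees of freedom remained. The members and lists were chosen with earlier results of these data known. The text names all called members, copies with their partners and up to 4 called genes of each list with the smallest p. Start-site sequences come from RefSeq. The 16 alternatives covered block, variance prior, level filters, normalization, cluster choice, threshold and left-out arrays. The pipeline was tested on simulated data.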

Additional observations from a re-analysis of the deposited data

How the results depend on the processing

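The counts of ribosomal protein genes called in shINSL4 moved with most settings, while the median of the 58 genes stayed positive in all 16. Block, variance models, threshold and treat leave fold changes unchanged, so they could not move that median. The median of all tested genes was positive too, except with genes of a mean log2 level under 10 left out (-0.008). The counts were 26 higher and 5 lower with an intensity trend, 28 and 5 with robust estimation added, 28 and 5 with the lowest 40% of genes left out, and 23 and 5 at an adjusted p under 0.1. Limma's treat against a fold of 1.2 called 0 higher and 1 lower (0 and 1 at an unadjusted p under 0.05). Quantile normalization gave 26 higher, with a median log2 fold change of 0.21, and median centring gave 4 higher and 5 lower, with a median of 0.11. With genes of a mean log2 level under 10 left out, 16 of the 20 remaining were higher, against 23.4% of all genes tested there, and the median was 0.21. Leaving out 1 array gave 0 to 11 higher, 1 to 4 lower and a median of 0.14 to 0.17; the lone array is then assumed to vary like the other group. Without the copy genes and RPS19BP1, an alternative chosen after seeing the data, 13 were higher and 3 lower, with a median of 0.19. The replicate block gave 22 higher and 5 lower, against 13.3% and 11.6% of all genes. Same-numbered deviations correlated at r = 0.232 over all genes. Not called without the block, RPS6, RPS10, RPS12, RPS21, RPS24, RPS27, RPS29, RPL7L1 and SNORA65 passed under it as higher. RPS16 and RPS4Y1 passed as lower. The sample titles give same-numbered cultures of both groups a common letter as well, with no statement of what number or letter stands for, so pairing was not taken as given. Uncalled genes near 0 changed sign. RPL10L had -0.0507 after quantile normalization, -0.0455 after cyclic loess and -0.149 to 0.254 with 1 array left out, passing as higher without shCtl replicate 1. RPL22L1 had -0.0109, -0.0371 and -0.0145 to 0.138 under the same settings. RPL26L1 had -0.0115 after centring, -0.0228 after cyclic loess and -0.00353 to 0.0765 with 1 array left out. RPL7 had -0.00286 after centring and -0.000409 to 0.0906 with 1 array left out, and RPL22 had -0.0214 after centring. The cause was not tested. No result met the rules for a closer look, since groups of 2 arrays allow no test for outliers.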
